A study of Mus musculus with 8 samples.

Results

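The genes described here are 10 readouts of the integrated stress response and the unfolded protein response, the pathways by which a cell answers shortage of amino acids, damage and misfolded protein in the endoplasmic reticulum (ER). They were Atf4, Ddit3, Trib3, Chac1, Asns and Atf3, which form the Atf4 branch, and Hspa5, Xbp1, Herpud1 and Dnajb9, which form the Xbp1 and Atf6 branch. Each was taken from the deposited gene count matrix by its symbol, 10 of 57132 rows, and where a symbol stood on more than 1 identifier the one with most reads was kept. That was so for Ddit3 alone, whose other identifier held 0 reads. All 10 passed the filter on low counts, and they were among 16588 genes tested.

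The PDT group held 4 RNA libraries of subcutaneous KPC tumours from mice that received Ce6@D4-EV and light, a targeted photodynamic therapy. The PBS group held 4 libraries of the same kind of tumour from mice given PBS, a buffered saline. KPC is a mouse model of pancreatic cancer. Ce6 is chlorin e6, a dye that generates reactive oxygen species under light. D4-EV is what the submitters call its carrier. The labels give no strain, age, clone, light dose or time after treatment, do not say that the tumours of a group came from separate animals, and call the tissue sorted without naming a gate, so p-values here measure a spread between libraries that may be technical. Tumours given light only, or the carrier without light, were not analysed here. The comparison asks whether transcripts of these stress pathways differed between PDT and PBS tumours.

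As background, several kinases that sense different stresses phosphorylate the translation factor eIF2, which lowers protein synthesis in general and favours translation of the ATF4 mRNA. ATF4 then switches on genes for amino acid supply and, with DDIT3 (CHOP) and ATF3, genes tied to cell death. In the ER, the sensor IRE1 splices the Xbp1 mRNA and the sensor ATF6 is cut in the Golgi, and the resulting factors switch on chaperones and degradation genes. The unfolded protein response is prominent in cells that secrete much protein, such as the acinar cells of the pancreas. Gene counts measure mRNA level and hold no direct readout of ATF4 translation, Xbp1 splicing or ATF6 cleavage. In bulk tumour RNA, fewer cells of a type and less RNA per cell cannot be told apart.

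Some of the promoters of these genes hold the letters of short elements that ATF4, or ATF6 and XBP1, can bind, and the matched stretches are printed here. A match of letters does not show that a factor binds there, and binding was not measured. Promoter windows of 250 bases before to 50 after the start were taken from RefSeq (GRCm38.p6), in which 10 of 10 genes were matched. Lower case is the gene's own strand, 5′ to 3′, and capitals mark the matched element. Coordinates in brackets are those of the whole printed stretch with its flanking bases, and the strand named is that of the gene. The letters TGATGNAA read on the gene's own strand in Asns and on the other strand in Trib3, Chac1 and Atf3. The C/EBP-ATF response element (CARE), searched as TGATGNAA on both strands, was found in 5 of 10 windows and in 3.97% of 32851 mouse promoters. In Trib3 it lay 15 to 22 bases after the start (chr2:152344029-152344056, minus strand), in Chac1 186 to 193 bases before it (chr2:119351039-119351066, plus strand), in Asns 16 to 23 bases before it (chr6:7693215-7693242, minus strand) and in Atf3 103 to 110 bases before it (chr1:191183426-191183453, minus strand).
Trib3: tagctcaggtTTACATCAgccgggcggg
Chac1: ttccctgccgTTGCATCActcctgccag
Asns: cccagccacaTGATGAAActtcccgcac
Atf3: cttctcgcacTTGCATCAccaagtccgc

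The ER stress elements are bound by ATF6 and XBP1 with the factor NF-Y. The ER stress element proper (ERSE, CCAAT then 9 bases then CCACG, either strand) was found in the Hspa5 window, as in 0.119% of promoters, and its variant ERSE-II (ATTGG, any 1 base, CCACG, either strand) in the Herpud1 window, as in 0.0365%. The Hspa5 window also held the core of the unfolded protein response element (UPRE core, TGACGTG, either strand), found in 2.01% of promoters, and the Herpud1 window also held the CARE. None of these 4 elements was matched in the windows of Atf4, Ddit3, Xbp1 and Dnajb9, which says only that these letters are not in those windows. The whole windows of Hspa5 and Herpud1 are shown because each held 2 of the elements. The part of these elements in the levels of Hspa5 and Herpud1 was not tested. The Hspa5 window is chr2:34771840-34772139 (plus strand), with the UPRE core before the ERSE. The Herpud1 window is chr8:94386179-94386478 (plus strand), with the CARE before the ERSE-II.
Hspa5: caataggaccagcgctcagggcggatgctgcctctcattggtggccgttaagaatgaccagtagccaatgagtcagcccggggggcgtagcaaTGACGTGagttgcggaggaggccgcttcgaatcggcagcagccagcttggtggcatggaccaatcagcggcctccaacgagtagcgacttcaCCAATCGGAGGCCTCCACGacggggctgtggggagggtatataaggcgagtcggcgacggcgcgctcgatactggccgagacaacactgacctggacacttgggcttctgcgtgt
Herpud1: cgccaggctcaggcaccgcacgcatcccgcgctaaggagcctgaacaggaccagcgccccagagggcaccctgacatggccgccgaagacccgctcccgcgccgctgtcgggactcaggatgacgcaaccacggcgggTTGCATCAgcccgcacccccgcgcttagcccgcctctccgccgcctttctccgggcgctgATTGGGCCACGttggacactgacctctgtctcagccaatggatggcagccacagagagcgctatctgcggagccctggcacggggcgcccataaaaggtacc

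In these tumours none of the 10 genes passed the threshold of adjusted p under 0.05 in edgeR's quasi-likelihood test with Benjamini-Hochberg adjustment over all tested genes, against 39 of 16588 tested genes (0.235%). Likewise 0 of 10 passed in DESeq2, which called 912 of 14036 genes (6.5%), and 0 of 10 in limma-voom, which called 167 of 16588 (1.01%). At an unadjusted p under 0.05, 1 of 10 passed, Dnajb9, which was lower in PDT tumours, beside 16.5% of all tested genes in either direction and 7.87% in the lower direction. The PDT and PBS values overlapped in 10 of 10 genes, so 0 of 10 had groups that did not overlap, beside 10.1% of all tested genes. Of the 10, 5 had a log2 fold change above 0, beside 49.8% of all tested genes. Log2 fold changes below are PDT minus PBS with their standard error (SE), levels are counts-per-million of the scaled library (CPM), and adjusted p-values are those of edgeR's quasi-likelihood test.

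Libraries held 39026840 to 48804713 counted reads in PDT and 35742024 to 40337306 in PBS. The floor, the level at which a gene with 0 reads could still stand by counting chance, 3 reads per library, was at most 0.0872 CPM, below every value of the 10 genes. Mitochondrial reads were 1.56% to 2.27% in PDT and 2.26% to 3.14% in PBS. PBS 1 stood apart from the other 7 libraries on the first principal component (25.0% of the variance), and without it the log2 fold changes of Atf3 and Xbp1 were −0.00356 and −0.05. The epithelial markers Epcam, Krt8, Krt18 and Krt19 were expressed in every library. Of 7 acinar markers 5 were too low to test, among them Pnlip and Amy2a5 with 0 reads in every library, and the sum of the 7, nearly all of it Cela1, was 67.1 to 103 CPM in PDT and 32.2 to 213 CPM in PBS. Summed epithelial markers spanned 3108 to 6273 CPM in PDT and 3558 to 7355 CPM in PBS.

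**Figure D1:**
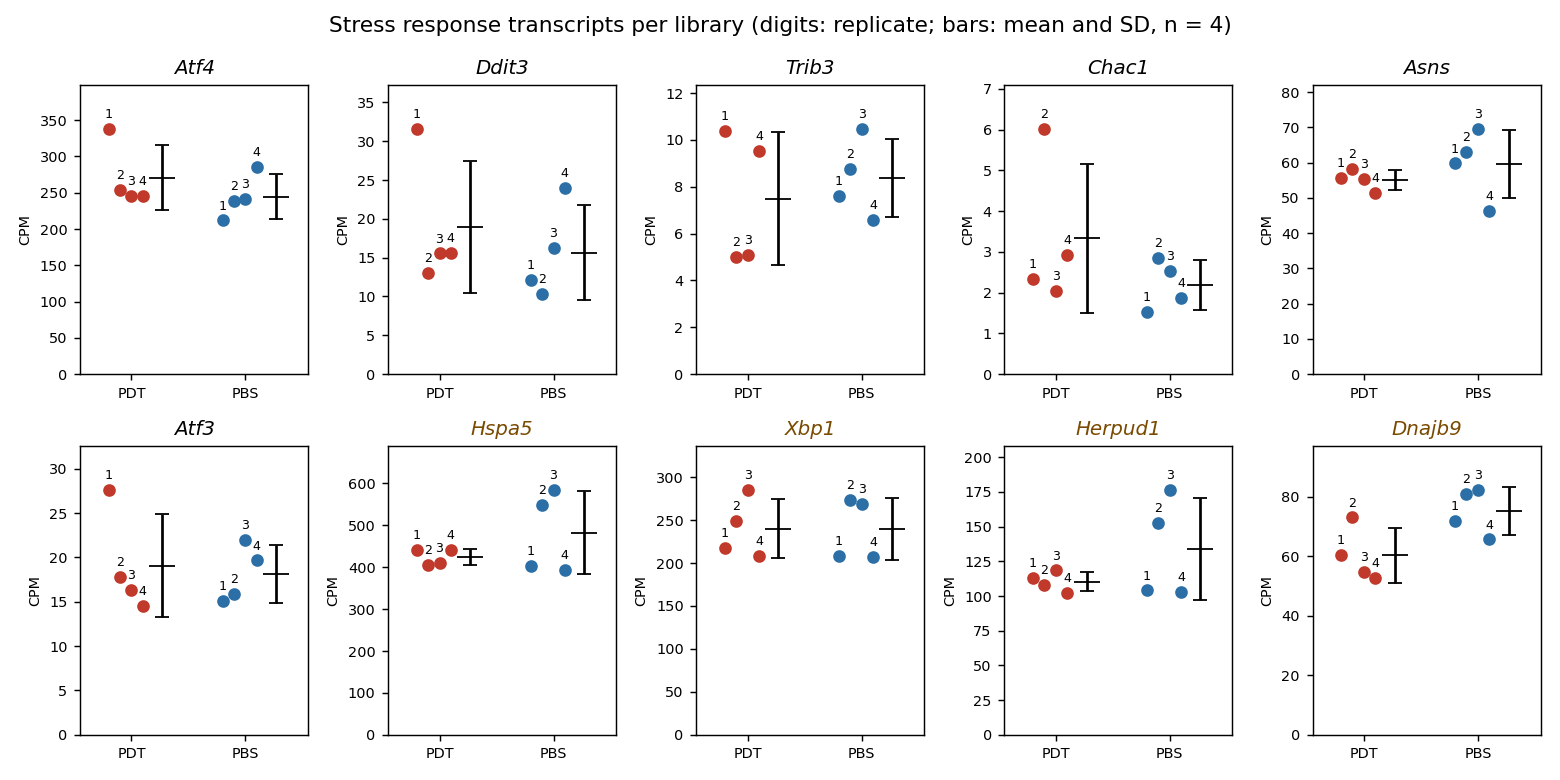
Level of each of the 10 genes in the 4 PDT and the 4 PBS tumours, in CPM on an axis of its own per gene, with points for libraries and lines for the group mean ± SD. PDT 1 stands above the other PDT tumours for Atf4, Ddit3 and Atf3, PDT 2 for Chac1, and PBS 2 and PBS 3 are the highest PBS tumours for Hspa5, Xbp1, Herpud1 and Dnajb9.

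Atf4 (ENSMUSG00000042406), the transcription factor at the centre of the branch, had 338, 254, 245 and 246 CPM in PDT 1 to PDT 4, against 212, 239, 242 and 286 CPM in PBS 1 to PBS 4. PDT 1 was the highest of the 8 tumours, and the other 3 PDT tumours lay within the PBS range. The group means were 271 ± 44.8 CPM in PDT and 245 ± 30.8 CPM in PBS (SD, n = 4 each), a log2 fold change of 0.15 ± 0.14 (SE) with a 95% interval of −0.17 to 0.46 and an adjusted p of 0.675. Corrected for GC content and length of the transcripts, the value was −0.13, and it was 0.03 without PDT 1 and 0.25 without PBS 4, so no direction is given for Atf4.

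Ddit3 (ENSMUSG00000025408) encodes CHOP, a factor that promotes death of cells under lasting ER stress. It had 31.6, 13.0, 15.5 and 15.6 CPM in PDT 1 to PDT 4, against 12.1, 10.3, 16.2 and 24.0 CPM in PBS 1 to PBS 4. PDT 1 was again the highest tumour, PBS 4 was the second highest for both Atf4 and Ddit3, and the other PDT tumours lay among the PBS tumours. The log2 fold change was 0.28 ± 0.32 with a 95% interval of −0.42 to 0.98 and an adjusted p of 0.741, and it was −0.08 without PDT 1, 0.57 without PBS 4 and 0.10 with the GC and length correction. Ddit3 lies antisense to Mars, and the longest overlap of a Ddit3 exon with a Mars exon was 68 bases in GENCODE M21. Mars had 20402 reads over the 8 libraries where Ddit3 had 5590. The Ddit3 count is therefore uncertain as long as the strand setting of the counting is not known.

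Atf3 (ENSMUSG00000026628), an early stress factor induced by ATF4 and by several other pathways, had 27.6, 17.8, 16.4 and 14.5 CPM in PDT 1 to PDT 4, against 15.1, 15.9, 22.0 and 19.7 CPM in PBS 1 to PBS 4. As for Atf4 and Ddit3, PDT 1 was the highest of the 8 tumours, whereas PDT 4 was the lowest. The log2 fold change was 0.07 ± 0.22 with a 95% interval of −0.41 to 0.56 and an adjusted p of 0.916. It was −0.15 without PDT 1 and −0.17 with the GC and length correction.

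PDT 1 also had the highest summed level of 10 hypoxia genes, 4128 CPM in PDT 1 and 2545 to 3284 CPM in the other PDT tumours, against 2796 to 3811 CPM in PBS tumours. Its summed neutrophil markers stood at 559.6 CPM, with 174 to 509 CPM in the other PDT tumours and 95.2 to 239 CPM in PBS tumours. Their part in the Atf4, Ddit3 and Atf3 values of PDT 1 was not tested.

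Trib3 (ENSMUSG00000032715), a pseudokinase that ATF4 and CHOP induce and that feeds back on them, had 10.4, 4.99, 5.08 and 9.53 CPM in PDT 1 to PDT 4, against 7.62, 8.77, 10.5 and 6.57 CPM in PBS 1 to PBS 4. The PDT tumours split into a higher and a lower pair that enclosed all but the highest PBS tumour. The log2 fold change was −0.16 ± 0.30 with a 95% interval of −0.80 to 0.49 and an adjusted p of 0.854, and it was 0.01 without PDT 2, −0.34 without PDT 1 and −0.48 with the GC and length correction.

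Chac1 (ENSMUSG00000027313), an enzyme that breaks down glutathione and a sensitive target of ATF4, had the largest log2 fold change of the 10 and the widest interval. It had 2.33, 6.01, 2.05 and 2.93 CPM in PDT 1 to PDT 4, from 105, 236, 92 and 120 reads, against 1.52, 2.86, 2.52 and 1.86 CPM in PBS 1 to PBS 4, from 56, 120, 96 and 64 reads. PDT 2 was above the other 7 tumours by more than 3 CPM, and PDT 1 and PDT 3 lay within the PBS range. The means were 3.33 ± 1.83 CPM in PDT and 2.19 ± 0.609 CPM in PBS (SD, n = 4 each), a log2 fold change of 0.60 ± 0.44 with a 95% interval of −0.36 to 1.57 and an adjusted p of 0.554. Without PDT 2 it was 0.17, and with the GC and length correction 0.33. PDT 2 was also the tumour with the most skeletal muscle transcripts, 3336 CPM over 8 markers, with 161 to 780 CPM in the other PDT tumours and 55.4 to 1329 CPM in PBS tumours, and the part of muscle in the Chac1 value was not tested.

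Asns (ENSMUSG00000029752) encodes asparagine synthetase, an enzyme that makes asparagine and a standard target of ATF4. It had 55.6, 58.2, 55.4 and 51.4 CPM in PDT 1 to PDT 4, against 59.8, 62.9, 69.5 and 46.4 CPM in PBS 1 to PBS 4. The PDT values were close together and all lay inside the PBS range. The means were 55.1 ± 2.80 CPM in PDT and 59.7 ± 9.72 CPM in PBS, with a log2 fold change of −0.11 ± 0.14, a 95% interval of −0.42 to 0.19 and an adjusted p of 0.753. It was −0.03 without PBS 3, −0.07 without PDT 4, −0.20 without PBS 4 and −0.29 with the GC and length correction.

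Among the Xbp1 and Atf6 branch genes, Hspa5 (ENSMUSG00000026864) encodes BiP, the main ER chaperone of the HSP70 family, which holds the ER sensors inactive until misfolded protein draws it away. It had 441, 405, 409 and 441 CPM in PDT 1 to PDT 4, against 403, 549, 585 and 394 CPM in PBS 1 to PBS 4. PBS 2 and PBS 3 were above every other tumour, and PBS 1 and PBS 4 were below every PDT tumour, so the PDT group sat between them. The means were 424 ± 19.8 CPM in PDT and 483 ± 98.4 CPM in PBS (SD, n = 4 each), with a log2 fold change of −0.19 ± 0.15, a 95% interval of −0.51 to 0.14 and an adjusted p of 0.591. It was −0.08 without PBS 3 and −0.12 without PBS 2.

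Herpud1 (ENSMUSG00000031770), an ER membrane protein of the machinery that sends misfolded proteins to the proteasome, had 113, 108, 119 and 102 CPM in PDT 1 to PDT 4, against 104, 153, 177 and 103 CPM in PBS 1 to PBS 4. The pattern was that of Hspa5, with PBS 2 and PBS 3 above all other tumours and the other 2 PBS tumours at the low end of the PDT values. The means were 110.4 ± 6.92 CPM in PDT and 134 ± 36.6 CPM in PBS, with a log2 fold change of −0.28 ± 0.18, a 95% interval of −0.67 to 0.11 and an adjusted p of 0.477. Without PBS 3 it was −0.12, and with the GC and length correction −0.53 (adjusted p = 0.161). PBS 2 and PBS 3 also had the lowest summed fibroblast markers of the PBS tumours, 8947 and 7786 CPM, with 15816 CPM in PBS 1 and 10393 CPM in PBS 4. PBS 3 had the highest summed epithelial markers of all 8 tumours. It also had the highest summed acinar markers, 213 CPM, of which Cela1 made 210.0 CPM, with 67.1 to 103 CPM in PDT tumours and 32.2 to 62.2 CPM in the other PBS tumours. The part of these cell types in the Hspa5 and Herpud1 values was not tested.

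Dnajb9 (ENSMUSG00000014905), an ER co-chaperone of BiP induced through spliced XBP1 and known to restrain IRE1, had the lowest p of the 10 (with the GC and length correction, Herpud1 did). It had 60.6, 73.1, 54.8 and 52.7 CPM in PDT 1 to PDT 4, against 71.8, 81.1, 82.3 and 65.7 CPM in PBS 1 to PBS 4. The highest PDT tumour exceeded the lowest 2 PBS tumours, and the other 3 PDT tumours were below every PBS tumour. The means were 60.3 ± 9.15 CPM in PDT and 75.2 ± 7.91 CPM in PBS (SD, n = 4 each), a log2 fold change of −0.32 ± 0.14 with a 95% interval of −0.63 to −0.01, an unadjusted p of 0.0425 and, in edgeR, an adjusted p of 0.281. Over 17 alternative settings the value stayed between −0.41 and −0.25, with adjusted p-values of 0.155 to 0.550.

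Xbp1 (ENSMUSG00000020484), whose mRNA is the substrate of IRE1 and a target of ATF6, had 218, 249, 285 and 208 CPM in PDT 1 to PDT 4, against 209, 273, 269 and 207 CPM in PBS 1 to PBS 4. The groups covered nearly the same range. The means were 240.2 ± 34.7 CPM in PDT and 239 ± 36.4 CPM in PBS, with a log2 fold change of 0.00424 ± 0.15, a 95% interval of −0.32 to 0.32 and an adjusted p of 0.994. The value was −0.24 with the GC and length correction. The count sums the spliced and unspliced forms of the mRNA.

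**Figure D2:**
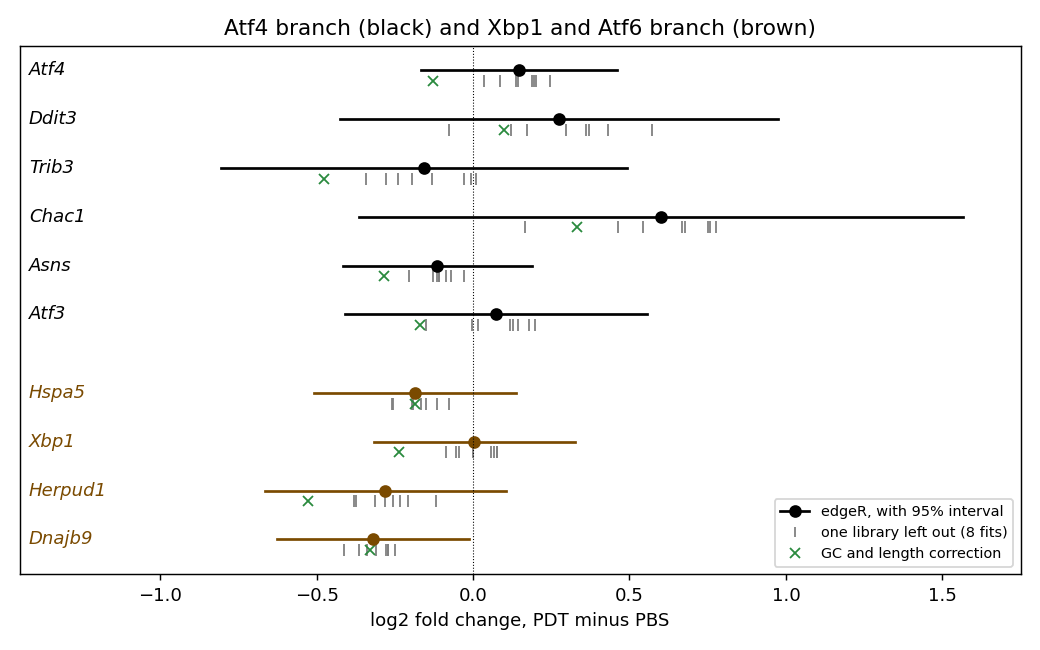
Log2 fold change (PDT minus PBS) of each of the 10 genes with its 95% interval, ordered by branch, with ticks for the 8 fits that leave out 1 library, crosses for the GC and length correction and a dotted line at 0. The intervals of 9 genes include 0, the interval of Dnajb9 ends at −0.01, and the Chac1 interval of −0.36 to 1.57 is the widest.

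Set against each other, the branches lay on either side of 0 by small amounts, and no test is given because the genes were chosen with earlier results of these data known. In the Atf4 branch 4 of 6 genes had a log2 fold change above 0, with a median of 0.11, whereas in the Xbp1 and Atf6 branch 1 of 4 did, with a median of −0.23. The median over all 16588 tested genes was −0.00217. Without PDT 1 the median of the Atf4 branch was −0.09, and with the GC and length correction it was −0.15, so its side of 0 depended on 1 tumour and on that correction. The correction also moved the median over all tested genes, to −0.08, so values corrected in this way are not centred on 0. The median of the Xbp1 and Atf6 branch stayed between −0.31 and −0.10 when each tumour was left out in turn, with −0.10 without PBS 3, and was −0.28 with the correction.

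Per tumour, the mean log2 CPM of the 6 Atf4 branch genes was 4.77, 4.44, 4.19 and 4.38 in PDT 1 to PDT 4, against 4.12, 4.32, 4.55 and 4.37 in PBS 1 to PBS 4. The mean log2 CPM of the 4 Xbp1 and Atf6 branch genes was 7.32, 7.39, 7.37 and 7.22 in PDT 1 to PDT 4, against 7.31, 7.70, 7.77 and 7.26 in PBS 1 to PBS 4. PDT 1 was the highest tumour in the Atf4 branch, and PBS 2 and PBS 3 were the highest in the Xbp1 and Atf6 branch, so that different tumours set the upper end of each. The SD over tumours was 0.24 in PDT and 0.17 in PBS for the Atf4 branch, and 0.08 in PDT and 0.26 in PBS for the Xbp1 and Atf6 branch.

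The Atf4 branch mean minus the Xbp1 and Atf6 branch mean was −2.56, −2.95, −3.18 and −2.84 in PDT 1 to PDT 4, against −3.18, −3.38, −3.23 and −2.89 in PBS 1 to PBS 4. The groups overlapped, since PDT 2 and PDT 3 lay below PBS 4, and PDT 3 was level with PBS 1. The means were −2.88 ± 0.26 in PDT and −3.17 ± 0.21 in PBS (SD, n = 4 each) and differed by 0.29.

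**Figure D3:**
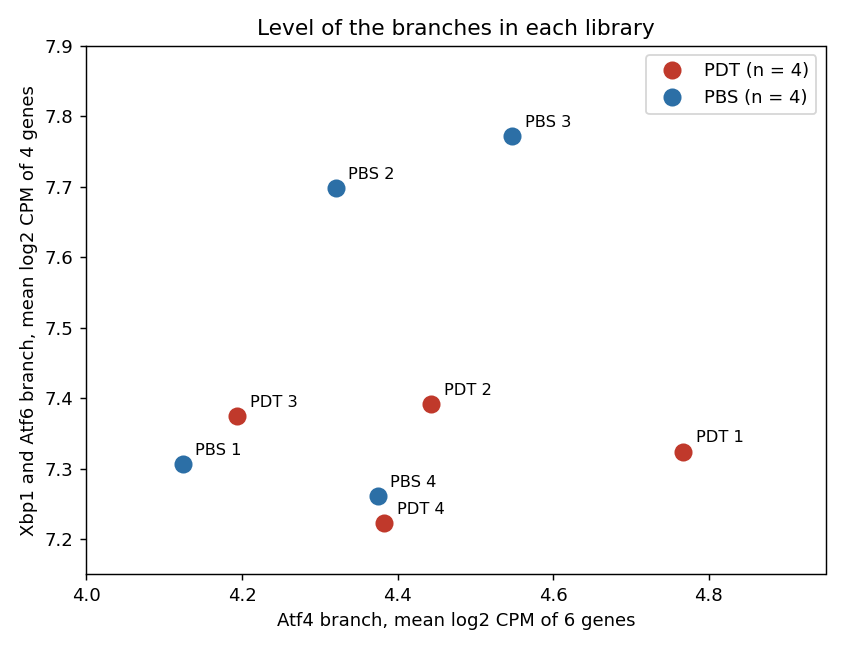
Mean log2 CPM of the 4 Xbp1 and Atf6 branch genes against that of the 6 Atf4 branch genes, 1 point per tumour, coloured by group. PDT 1 lies farthest out in the Atf4 branch at 4.77, and PBS 2 and PBS 3 lie highest in the Xbp1 and Atf6 branch at 7.70 and 7.77.

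Divided by exon length, so that genes can be compared, the order of levels over the 8 tumours ran from Atf4 at 109 ± 16.2 CPM per kb and Hspa5 at 107 ± 17.2 (SD) through Xbp1 at 73.8 ± 10.1, Herpud1 at 52.4 ± 11.8, Dnajb9 at 26.6 ± 4.41 and Asns at 21.0 ± 2.58. Below these came Ddit3 at 10.1 ± 4.13 CPM per kb, Atf3 at 8.64 ± 2.05, Trib3 at 3.73 ± 1.04 and Chac1 at 1.69 ± 0.855. Atf4 and Hspa5 did not differ beyond their spread, with Atf4 above in 5 of 8 tumours, nor did Ddit3 and Atf3, with Ddit3 above in 5 of 8. Ranges of neighbours also overlapped for Xbp1 and Herpud1, Dnajb9 and Asns, Asns and Ddit3, and Trib3 and Chac1, although within a tumour the first of each pair was above the second in 8, 8, 8 and 7 of 8 tumours in that order. The transcription factors Ddit3 and Atf3 and the targets Trib3 and Chac1 thus stood at the low end.

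How the genes varied together was measured over the 8 tumours as correlations of log2 CPM for 45 pairs, with exact permutation p-values, and 0 pairs passed after Benjamini-Hochberg adjustment over the 45. For Atf4 and Ddit3, Pearson's r was 0.89 (exact permutation p = 0.00409, adjusted 0.183) and Spearman's rho 0.76 (exact permutation p = 0.0368, adjusted 0.516). Without PDT 1 and PBS 4, the 2 tumours farthest from the median of Atf4, r was 0.39. For Atf4 and Atf3 r was 0.81, and 0.32 without the same 2 tumours, and for Ddit3 and Atf3 it was 0.79 and 0.37. Leaving out the most extreme tumours narrows the range, which can by itself lower r, so these falls do not settle whether the relations rested on those tumours.

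Xbp1 and Herpud1 had r = 0.71 (exact permutation p = 0.0335, adjusted 0.224) and rho = 0.86 (exact permutation p = 0.0107, adjusted 0.346), and r was 0.82 without PDT 3 and PBS 2. For Asns and Dnajb9, r was 0.70 (exact permutation p = 0.0520, adjusted 0.292) and rho 0.83 (exact permutation p = 0.0154, adjusted 0.346), and r was 0.94 without PBS 3 and PBS 4. Asns and Herpud1 had r = 0.80 (exact permutation p = 0.0126, adjusted 0.183) and rho = 0.74, and r was 0.65 without PBS 3 and PBS 4. Asns and Hspa5 had r = 0.74 (exact permutation p = 0.0348, adjusted 0.224) and rho = 0.55, and r was 0.43 without those tumours. Hspa5 and Herpud1 are given no pooled value, since PBS 2 and PBS 3 stood as a separate cluster in both. The pairs of Asns or Xbp1 with 1 of these genes hold the same cluster on 1 side, and their r was not taken without both PBS 2 and PBS 3. These points share their libraries and their scaling.

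The other genes of the pathways were described from 8 lists with 109 entries, of which 108 were tested and 1, Derl3, was too low. Of the 108, 53 were higher and 55 lower in PDT tumours, the median log2 fold change was −0.00688, and none passed adjusted p under 0.05 in edgeR, with a lowest value of 0.0603. DESeq2 called 8 of the 106 to which it gave an adjusted p (7.55%), beside 6.5% of all genes, and limma-voom called 1 of 108 (0.926%), beside 1.01%, so both shares were near those of all genes. At an unadjusted p under 0.05, 26 of 108 (24.1%) passed, beside 16.5% of all tested genes, and in 19 (17.6%) the groups did not overlap, beside 10.1%. Genes named below without a place among the 2 lowest p-values of their list were chosen after their values were seen. The 8 that DESeq2 called were Cebpb, higher in PDT tumours, and Slc38a2, Slc7a5, Tnfrsf10b, Atf6, Mbtps2, Hspa13 and Spcs3, lower. DESeq2 did not call Manf, Os9 and Sec61g, which were higher (adjusted p 0.0788, 0.0760 and 0.0755). Nor did it call Eif2ak3, Ppp1r15b and Erlec1, which were lower (adjusted p 0.121, 0.240 and 0.162).

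**Figure D4:**
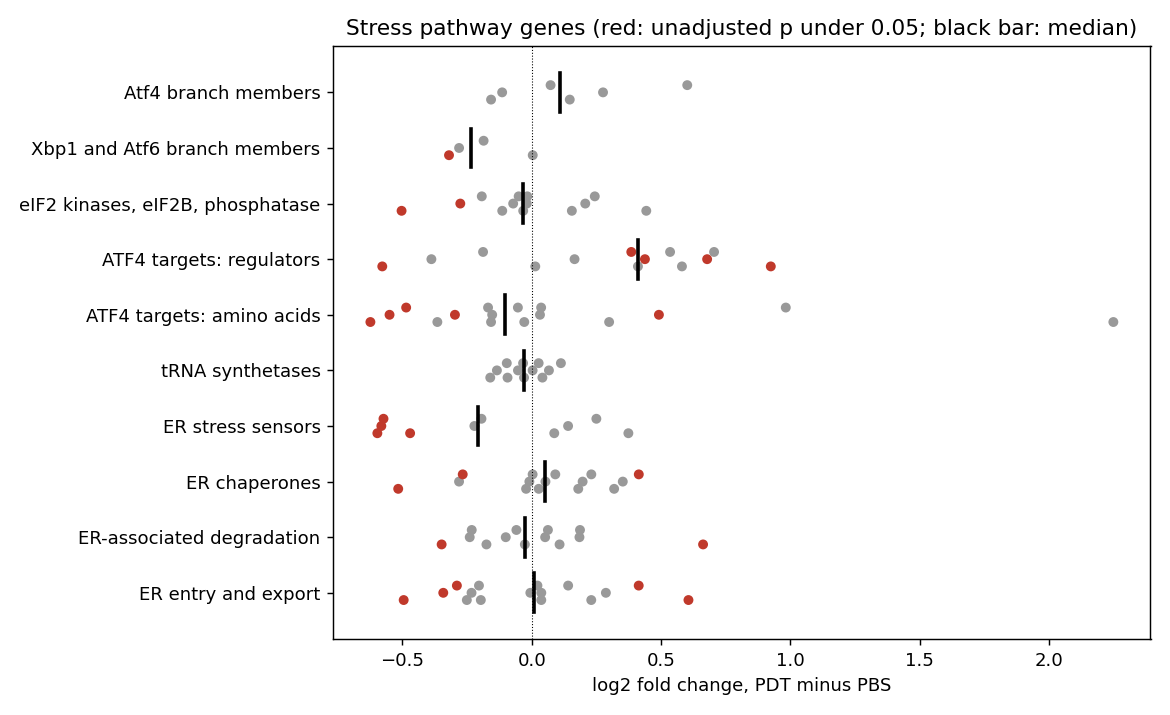
Log2 fold change (PDT minus PBS) of each tested gene of the 8 pathway lists, 1 row per list with its median as a bar, under the 2 branches, with unadjusted p under 0.05 in red. The lists spread on both sides of 0, with medians of 0.41 for the regulators induced by ATF4 and −0.21 for the unfolded protein response sensors at the extremes of the 8.

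Upstream of Atf4, the 13 genes of the eIF2 kinases, of the exchange factor eIF2B and of the phosphatase that reverses the signal were 4 higher and 9 lower, with a median of −0.03 and a range of −0.50 to 0.44. Eif2ak3, which encodes PERK, the ER-resident eIF2 kinase, had 18.0, 19.1, 23.5 and 28.1 CPM in PDT 1 to PDT 4, against 26.0, 34.1, 38.1 and 27.4 CPM in PBS 1 to PBS 4. Only PDT 4 reached the PBS range, and the log2 fold change was −0.50 ± 0.18 with an adjusted p of 0.201. Ppp1r15b, the constitutive subunit of the eIF2 phosphatase, averaged 64.1 ± 1.94 CPM in PDT and 77.6 ± 9.99 CPM in PBS, with an adjusted p of 0.296.

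Targets of ATF4 that supply amino acids, the enzymes of serine, proline and folate metabolism and the plasma membrane transporters, numbered 16, with 6 higher, 10 lower and a median of −0.10. Slc38a2, the transporter of small neutral amino acids that responds to amino acid shortage, had 154, 174, 169.7 and 147 CPM in PDT 1 to PDT 4, against 222, 242, 233 and 205 CPM in PBS 1 to PBS 4. All 4 PDT tumours were below all 4 PBS tumours. The log2 fold change was −0.48 ± 0.11, with an adjusted p of 0.0861 in edgeR and 0.00423 in DESeq2. With the GC and length correction it was −0.35 (adjusted p = 0.131 in edgeR).

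Slc7a5, the large neutral amino acid transporter LAT1, averaged 34.0 ± 1.74 CPM in PDT and 49.7 ± 11.1 CPM in PBS, also with no overlap. It had a log2 fold change of −0.55 ± 0.16 with an adjusted p of 0.117 in edgeR and 0.0372 in DESeq2. With the GC and length correction Slc7a5 was at −0.72 (adjusted p = 0.0830 in edgeR). The arginine transporter Slc7a1 and the serine synthesis enzyme Phgdh had unadjusted p-values under 0.05 in the same direction (log2 fold changes −0.62 and −0.30, adjusted p 0.146 and 0.221 in edgeR), and the proline synthesis enzyme Pycr1 in the other (0.49, adjusted p 0.191). The summed list stood at 881, 962, 917 and 926 CPM in PDT 1 to PDT 4, against 1023, 1097, 1070.5 and 1039 CPM in PBS 1 to PBS 4, so the summed level of every PDT tumour was below that of every PBS tumour. Weighting the 16 genes equally, the groups overlapped, with a mean log2 CPM of 4.53 to 4.74 in PDT and 4.43 to 4.77 in PBS. The 12 aminoacyl-tRNA synthetases that ATF4 regulates, which load amino acids onto tRNAs, were 5 higher and 7 lower, with log2 fold changes of −0.16 (Sars1) to 0.11 (Nars1). They held 0 genes at an unadjusted p under 0.05, beside 16.5% of all tested genes.

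Regulators induced by or paired with ATF4 numbered 13, with 10 higher, 3 lower and a median of 0.41. Cebpb, a leucine zipper factor that pairs with ATF4 and is also a myeloid and inflammatory factor, had 83.0, 50.5, 68.5 and 67.3 CPM in PDT 1 to PDT 4, against 30.3, 40.8, 27.7 and 43.0 CPM in PBS 1 to PBS 4. All PDT tumours were above all PBS tumours. The log2 fold change was 0.92 ± 0.19, with an adjusted p of 0.0603 in edgeR, 0.0433 in limma-voom and 0.000633 in DESeq2, and edgeR called it without PDT 2 (adjusted p = 0.0386) and without PBS 4 (adjusted p = 0.0467). With the GC and length correction Cebpb was at 0.52 (adjusted p = 0.168), and over the 8 fits that leave out 1 tumour its adjusted p in edgeR was 0.0386 to 0.190, the highest without PDT 1.

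Tnfrsf10b, the death receptor DR5 that CHOP induces, averaged 15.9 ± 3.22 CPM in PDT and 23.8 ± 2.11 CPM in PBS with no overlap. It had a log2 fold change of −0.58 ± 0.17 and an adjusted p of 0.134 in edgeR and 0.0458 in DESeq2. With the GC and length correction Tnfrsf10b was at −0.69 (adjusted p = 0.0987 in edgeR). Atf5, Nupr1 and Sesn2 had unadjusted p-values under 0.05 in the direction of Cebpb, with log2 fold changes of 0.44, 0.68 and 0.39 and adjusted p-values in edgeR of 0.149, 0.208 and 0.292. Summed levels of the list overlapped between the groups, at 452 to 720.0 CPM in PDT and 391.8 to 583 CPM in PBS, with PDT 1 highest. Weighting the 13 genes equally, the groups overlapped too. The mean log2 CPM was 4.55, 3.99, 3.90 and 4.28 in PDT 1 to PDT 4, against 3.14, 4.14, 3.81 and 4.07 in PBS 1 to PBS 4, with PBS 1 lowest.

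The sensors of the unfolded protein response with the proteases that cut ATF6 and the ligase that completes Xbp1 splicing numbered 10, with 4 higher, 6 lower and a median of −0.21. At an unadjusted p under 0.05 in edgeR, 4 of 10 were lower and 0 higher, beside 7.87% of all tested genes lower. Other lists had such genes too, with 4 lower and 1 higher among the 16 amino acid targets and 1 lower and 4 higher among the 13 regulators. Atf6, the sensor cut in the Golgi, had 21.0, 34.8, 29.1 and 32.9 CPM in PDT 1 to PDT 4, against 42.4, 45.8, 46.9 and 41.1 CPM in PBS 1 to PBS 4. All PDT tumours were below all PBS tumours, and the log2 fold change was −0.58 ± 0.16 with an adjusted p of 0.109 in edgeR and 0.0303 in DESeq2. Mbtps2, the site-2 protease that makes the second cut in ATF6, averaged 26.3 ± 2.61 CPM in PDT and 39.8 ± 8.82 CPM in PBS. It had a log2 fold change of −0.60 ± 0.17 and an adjusted p of 0.117 in edgeR and 0.0348 in DESeq2. With the GC and length correction Atf6 was at −0.45 and Mbtps2 at −0.44 (adjusted p 0.162 and 0.238 in edgeR).

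Ern1, which encodes IRE1 alpha, had 18.2, 18.9, 30.7 and 27.3 CPM in PDT 1 to PDT 4, against 34.2, 34.1, 34.4 and 38.8 CPM in PBS 1 to PBS 4, again with no overlap. Its log2 fold change was −0.57 ± 0.18 with an adjusted p of 0.1496 in edgeR. Creb3l2, an ATF6-like factor, had −0.47 ± 0.18 with an adjusted p of 0.226. The summed sensor list stood at 518, 543, 598 and 609 CPM in PDT 1 to PDT 4, against 609, 630.1, 623 and 633 CPM in PBS 1 to PBS 4, with the highest PDT tumour just below the lowest PBS tumour.

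Downstream, the 15 ER chaperones and folding enzymes were 10 higher and 5 lower with a median of 0.05. Manf, a secreted ER stress protein, had 129.7, 138, 129 and 173 CPM in PDT 1 to PDT 4, against 91.0, 105, 109 and 124 CPM in PBS 1 to PBS 4, with a log2 fold change of 0.41 ± 0.14 and an adjusted p of 0.174. Hspa13, a microsomal relative of HSP70, lay on the other side, with 47.5 ± 6.82 CPM in PDT and 67.9 ± 3.29 CPM in PBS, a log2 fold change of −0.52 ± 0.13 and an adjusted p of 0.0972 in edgeR and 0.0147 in DESeq2. In both genes the groups did not overlap. With the GC and length correction Manf was at 0.20 and Hspa13 at −0.39 (adjusted p 0.484 and 0.138 in edgeR).

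Of 13 tested genes of ER-associated degradation, the pathway in which Herpud1 acts, 6 were higher and 7 lower with a median of −0.03. The lectins Os9 and Erlec1, which recognise trimmed sugars on misfolded proteins, had the lowest p-values and lay in opposite directions, at 0.66 ± 0.24 (adjusted p = 0.189) and −0.35 ± 0.14 (adjusted p = 0.232) in edgeR. Os9 was at 0.42 without PDT 4 and at 0.39 with the GC and length correction. The 16 genes of ER translocation and transport were 8 higher and 8 lower with a median of 0.01. Spcs3, a signal peptidase subunit, had −0.49 ± 0.14 (adjusted p = 0.109 in edgeR, 0.0238 in DESeq2). Sec61g, a subunit of the translocation channel, had 0.61 ± 0.22 (adjusted p = 0.193 in edgeR). With the GC and length correction Spcs3 was at −0.43 and Sec61g at 0.49.

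Genes that hold the promoter elements printed above lay on both sides of 0. Of 338 tested genes with a CARE, 178 were higher and 160 lower, their median log2 fold change was 0.01, and 1 gene (0.296%) was past adjusted p under 0.05, beside a median of 0.00510 and 0.212% over the 11806 tested genes with a promoter in the table. The 18 tested genes with an ERSE were 10 higher and 8 lower with a median of 0.03. The 9 tested genes with an ERSE-II were 2 higher and 7 lower with a median of −0.23. The 368 with the UPRE core were 165 higher and 203 lower with a median of −0.03. Past adjusted p under 0.05 in edgeR were 0 genes with an ERSE, 0 with an ERSE-II and 1 (0.272%) with the UPRE core. Over the 11806 genes, 5974 were higher and 5832 lower. These sets include those of the 10 genes that hold the element, among them Herpud1 in the ERSE-II set, so they are not independent of the values above.

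Genes of other stress pathways and of other cell types were read beside these values. In 9 heat shock genes, which answer misfolding in the cytosol, 7 were lower, with Hspa1b at −0.87 ± 0.21 (adjusted p = 0.0890) and Hspa1a at −1.21 ± 0.31 (adjusted p = 0.0985). These 2 genes are near-identical copies, so their reads may be split between them. Of 12 early response genes 8 were higher, with Zfp36 at 0.65 ± 0.16 (adjusted p = 0.0906) and Jun at 0.41 ± 0.13 (adjusted p = 0.158), and of 10 hypoxia genes 3 were higher, with Adm at 0.64 ± 0.27 (adjusted p = 0.259) and Slc2a1 at −0.62 ± 0.27 (adjusted p = 0.288), all in edgeR's quasi-likelihood test. With the GC and length correction Zfp36 was at 0.43, Jun at 0.22 and Adm at 0.38, and without PBS 3 Slc2a1 was at −0.36.

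All 12 macrophage markers had a log2 fold change above 0, with a median of 0.57, and their sum was 4996 to 6702 CPM in PDT and 2120 to 4131 CPM in PBS. Cd68, a lysosomal protein of macrophages, passed at 0.85 ± 0.15 (adjusted p = 0.0497 in edgeR), with 124 ± 11.98 CPM in PDT and 69.1 ± 11.9 CPM in PBS, and did not pass when any 1 of the 8 tumours was left out or with the GC and length correction (0.55, adjusted p = 0.162). All 8 tested neutrophil markers of 9, all 10 T and NK cell markers and all 8 skeletal muscle markers (median 1.63) were also above 0. All 6 erythroid markers were below 0, with a median of −1.416 and a sum of 591 to 1354 CPM in PDT and 809.6 to 4441 CPM in PBS. Summed fibroblast markers were 12398 to 14351 CPM in PDT and 7786 to 15816 CPM in PBS. In B and plasma cells, whose ER is large, 5 of 10 markers were tested, Mzb1 had 0 reads in every library, and the sum was 21.8 to 39.9 CPM in PDT and 19.8 to 92.7 CPM in PBS. The part of these cell types in the values of the 10 genes and of Cebpb was not tested.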

How the data were processed

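Directional libraries were made from Trizol-extracted, rRNA-depleted total RNA of 8 tumours, per the labels' protocols. What the authors deposited is a single table of unnormalized counts for each gene. The submitters' processing notes name cutadapt 4.6, STAR 2.7.11b and GRCm39. Counting tool, strand setting and annotation: not given in the sources used here. Genes that overlap a neighbour or have a near-identical copy are therefore uncertain. Between 77.9% and 83.8% of counts from 1 to 20 were even, as when both reads of a pair are counted, so counting intervals are too narrow. Rows with no symbol (484) held 0.0128% to 0.0176% of reads and were kept.

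Counts were tested in R 4.3.3 with edgeR 4.0.16 (filterByExpr, TMM scaling, glmQLFit and glmQLFTest, no covariate, all 8 libraries), which left 16588 genes and removed 0.0694% to 0.109% of reads. P-values were Benjamini-Hochberg adjusted over all tested genes, and the threshold was 0.05. SE is the log2 fold change divided by the root of F, and intervals of 95% use the t distribution with edgeR's degrees of freedom. CPM is counts-per-million with TMM scaling, log2 CPM has a prior count of 2, and errors of group means are SDs over 4 libraries. Exon lengths are unions of GENCODE M21 exons, matched by identifier. The biological coefficient of variation was 0.392. The fit was tested on simulated data. The 28 library pairs differed by chi-square per degree of freedom of 62.1 to 191, so none was a copy. Same-numbered PDT and PBS libraries had correlated deviations of 0.0385 to 0.069, under 0.1, so the numbers were not taken to pair tumours.

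The 10 genes and all 24 lists (247 entries) were chosen with earlier results of these data known, so lists have counts and medians and no test. Named were all 10 genes, of each other list every gene past the threshold and otherwise the 2 with the smallest p, and of a marker list genes past the threshold. Other marker genes are named to check the tissue and were chosen after their values were seen. Alternatives were RLE and upper quartile scaling, no count filter, at least 1 CPM in 4 samples, a replicate block, DESeq2 1.42.0, limma-voom (limma 3.58.1) with sample quality weights, counts divided by 2, and each library left out. A spline correction (4 degrees of freedom) for GC content and length, with 98.1% of genes matched, was added after seeing the data.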

Additional observations from a re-analysis of the deposited data

Results flagged for a closer look

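In 20 groups of 4 values, 1 for each of the 10 genes in PDT and in PBS, the gap between the most extreme tumour and the nearest other was compared with Dixon's 95% critical value for 4 samples. Chance flags about 1 in 20 such groups, and 2 were flagged here, both by the same tumour. Atf4 stood at 338 CPM in PDT 1, a gap of 0.903 of the group's range. Ddit3 stood at 31.6 CPM in PDT 1, a gap of 0.863 of the range. The 2 flags are not independent of each other, since they come from 1 library.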

How the results depend on the processing

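Over 17 alternatives the 10 genes gave 170 values, 0 of them past adjusted p under 0.05, with a lowest adjusted p of 0.155, and 157 kept their direction. The 13 that turned follow. With the GC and length correction Atf4 was at −0.13, Atf3 at −0.17 and Xbp1 at −0.24, beside a median of −0.08 over all tested genes. Atf3 was at −0.0141 in limma-voom, and Xbp1 at −0.000371 with the filter of 1 CPM. Leaving out 1 tumour, Ddit3 ranged from −0.0772 (without PDT 1) to 0.573, Trib3 from −0.342 to 0.0102 (without PDT 2), Atf3 from −0.149 (without PDT 1) to 0.197 and Xbp1 from −0.0866 (without PDT 3) to 0.0772. Atf3 was also at −0.00356 without PBS 1, and Xbp1 at −0.00117 without PDT 2, −0.0535 without PBS 1 and −0.0458 without PBS 4. The cause was not tested.

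Genes past the threshold numbered 39 (27 higher, 12 lower). They were 69 (50 and 19) with upper quartile scaling, 534 (395 and 139) with no filter, 88 (60 and 28) with 1 CPM in 4 samples, 912 (545 and 367) in DESeq2, 167 (100 and 67) in limma-voom and 67 (45 and 22) with counts divided by 2. With the GC and length correction they were 13 (3 and 10), and the Atf4 branch median was −0.15, beside −0.08 over all tested genes. With the replicate number as a block they were 182 (148 and 34), although the labels do not say that same-numbered libraries pair and no sample correlated best with its own number. Leaving out 1 tumour gave 0 to 122 genes (0 to 106 higher, 0 to 35 lower), with 0 without PDT 1, where 2162 passed at an unadjusted p under 0.05, and 0 without PBS 3, where 2349 did. The branch medians then ranged from −0.09 to 0.20 (Atf4) and from −0.31 to −0.10 (Xbp1 and Atf6). Ddit3, Trib3, Atf3 and Chac1 had the fewest reads and the widest intervals.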
